A study of Mus musculus with 15 samples.

Results

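Collagen mRNAs and the mRNAs of the enzymes that process collagen were measured in adipocytes differentiated from MAP cells during forskolin treatment and under rosiglitazone. MAP cells are immortalized adipocyte progenitors of the mouse, kept as a cell line. The genes were chosen by symbol: every collagen alpha chain, and Plod1, Plod2, Plod3, Lox, Loxl1, Loxl2, Loxl3, Serpinh1, Pcolce, Sparc, Fn1 and Fbn1, each with at least 50 reads summed over the 15 libraries. Of the 24421 gene symbols counted, 56 matched by name and 51 had enough reads, 39 of them collagen chains. The 5 that missed the minimum were Col13a1 and Col9a1 with 3 reads each, Col6a5 with 8, Col25a1 with 12 and Col22a1 with 38. Just inside it were Col6a6 with 53 reads, Col19a1 with 63 and Col6a4 with 66.

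Every group, vehicle included, was differentiated after confluence with a mix of insulin, isobutylmethylxanthine, dexamethasone and rosiglitazone. Insulin plus rosiglitazone followed, and both steps were given for a limited span of days, the same in every group. Treatment of the differentiated cells began at day 7 to 8. The groups were rosiglitazone for 3 days (Rosi3D), vehicle, and forskolin during 4 h (FSK4h), 1 day (FSK1D) and 3 days (FSK3D), each with 3 libraries. Forskolin switches on adenylyl cyclase, which makes cAMP, and rosiglitazone is a drug ligand of PPARγ, the nuclear receptor that drives fat cell differentiation. Neither the doses nor the harvest time of the vehicle cells is stated in the labels. The same vehicle group served every treated group, so length of treatment and age of the culture cannot be told apart. All libraries come from a single cell line. Since nothing ties the libraries of 1 group to different cultures, p-values speak only for the variation from library to library, which could be technical. Each treated group was set against vehicle, FSK3D against Rosi3D, FSK1D against FSK4h, and FSK3D against FSK1D. The 4 comparisons with vehicle share the vehicle libraries and are therefore not independent of each other.

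Collagens are secreted proteins in which alpha chains wind into a triple helix. Inside the cell, lysyl hydroxylases modify the chains and the chaperone encoded by Serpinh1 holds the helix together. Outside it, propeptides are cut off, and lysyl oxidases convert lysines to reactive aldehydes that crosslink the fibrils. Fat cells lie in a pericellular coat of basement membrane (type IV, with types XV and XVIII) and of type VI beaded filaments, with fibrils of types I, III and V between them.

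Library totals ran from 14056200 to 56282582 counts, and the ribosomal precursor Rn45s took 4.15% to 8.87% of them. Levels are given as CPM, library-scaled counts after TMM normalization (trimmed mean of M values). The labels call the cells adipocyte progenitors, and the libraries held mature adipocyte mRNAs as well: the 8 markers looked for (among them Adipoq, Plin1 and Fabp4) summed to 5586 to 12583 CPM, with Lep at 0 in FSK4h and FSK1D. Macrophage markers summed to 1.83 to 5.15 CPM. Of these, Adgre1 was at 0 in FSK4h, FSK1D and FSK3D, Itgam in FSK4h and Rosi3D, and Ptprc in FSK1D and FSK3D. Endothelial markers summed to 3.07 to 9.23 CPM, with Cdh5 at 0 in FSK3D. Skeletal muscle markers summed to 29.3 to 30.7 CPM in Rosi3D and to 3.81 to 4.25 CPM in vehicle. In both groups this was Acta1 alone, at 29.9 CPM on average in Rosi3D. Myh1 and Ckm were at 0 in both groups, and Myh4 was at 0 in every library. In these bulk libraries, fewer cells of a type and less RNA per cell cannot be told apart.

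Together the 51 genes took 2.34% ± 0.0800 of all counts in Rosi3D, 3.06% ± 0.0313 in vehicle, 3.04% ± 0.0700 in FSK4h, 3.50% ± 0.108 in FSK1D and 3.16% ± 0.0808 in FSK3D (SD, n = 3 each). The share was below the vehicle range in each Rosi3D library and above it in each FSK1D library. Collagen chains alone took 1.78% ± 0.0433 in Rosi3D, 1.83% ± 0.0288 in vehicle and 2.23% ± 0.0463 in FSK1D. Levels spanned more than 4 orders of magnitude. Per kb of gene length, the highest mean levels over all libraries were those of Col6a1 (672 CPM per kb), Sparc (630), Col1a1 (621), Fn1 (598) and Col6a2 (363), and the lowest that of Col19a1 (0.0126).

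**Figure D1:**
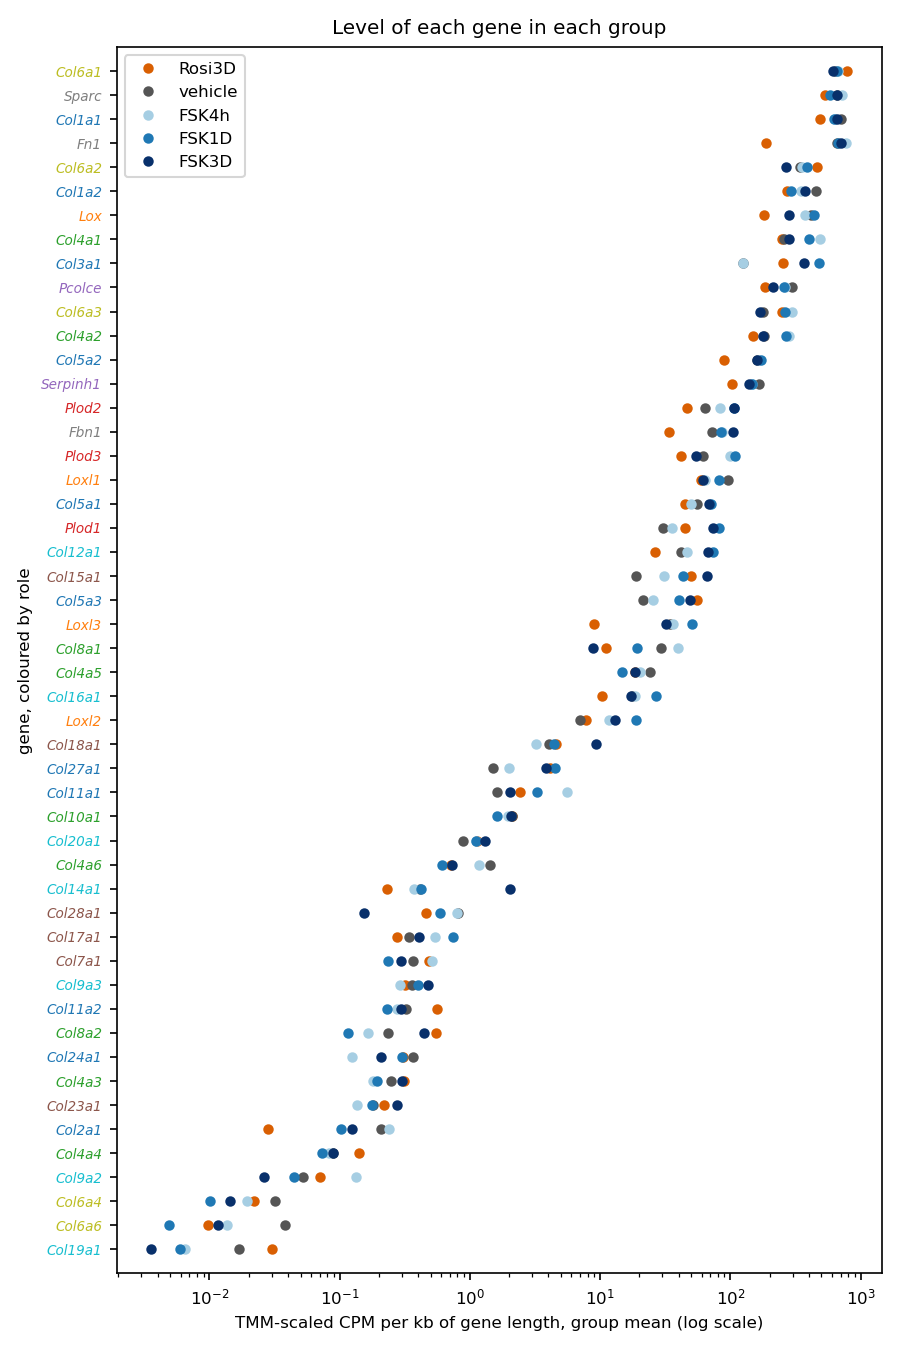
Mean level of each gene in each group, in TMM-scaled CPM per kb of gene length on a log axis, with genes ordered by their mean over all libraries and each point the mean of 3 libraries. Names are coloured by role: fibril-forming in blue, basement membrane and network in green, beaded filament in olive, fibril-associated in cyan, other chains in brown, lysyl hydroxylases in red, lysyl oxidases in orange, helpers in purple and matrix partners in grey. Col26a1 is left out because it had no read in vehicle. Fn1 is among the highest in vehicle and the forskolin groups, at 655 to 768 CPM per kb, and stands at 189 CPM per kb in Rosi3D.

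Differences were tested with edgeR's quasi-likelihood test, with p-values adjusted by the Benjamini-Hochberg method over all 14421 genes tested, and calls were made at adjusted p values under 0.05. Log2 fold changes are given ± SE, and every adjusted p below comes from this test. Of the 51 genes, 47 passed the filter on low counts; Col19a1, Col6a4, Col6a6 and Col9a2 did not. In Rosi3D against vehicle, 13 of the 47 were called higher and 23 lower, where 28.6% of all tested genes were called higher and 32.0% lower. Against vehicle, 17 were higher and 8 lower at 4 h of forskolin (28.4% and 30.7% of all genes), 21 and 11 at 1 day (19.5% and 20.7%), and 16 and 12 at 3 days (25.9% and 27%). The 23 lower calls in Rosi3D and the 21 higher calls at 1 day stood above the shares over all genes, and the counts at 3 days of forskolin stood nearer to them. Calls of at least 2-fold were 6 higher and 7 lower in Rosi3D (6.59% and 7.96% of all genes), 1 and 1 at 4 h (5.44% and 6.30%), 8 and 2 at 1 day (3.76% and 3.54%), and 7 and 2 at 3 days (4.38% and 3.85%). The split at 4 h depends on the scaling: with library size alone, which shifts the median of all genes by -0.23 on the log2 scale, 10 were higher and 16 lower. The median log2 fold change of the 47 was -0.29 in Rosi3D, 0.068 at 4 h, 0.11 at 1 day and -0.0045 at 3 days. That of all tested genes lay between -0.035 and 0.0088. The medians of the 47 are the same with Col26a1 set against a floor in vehicle. Col26a1 is counted among the higher calls in Rosi3D and at 1 day, though it met the read minimum only through its Rosi3D reads.

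**Figure D2:**
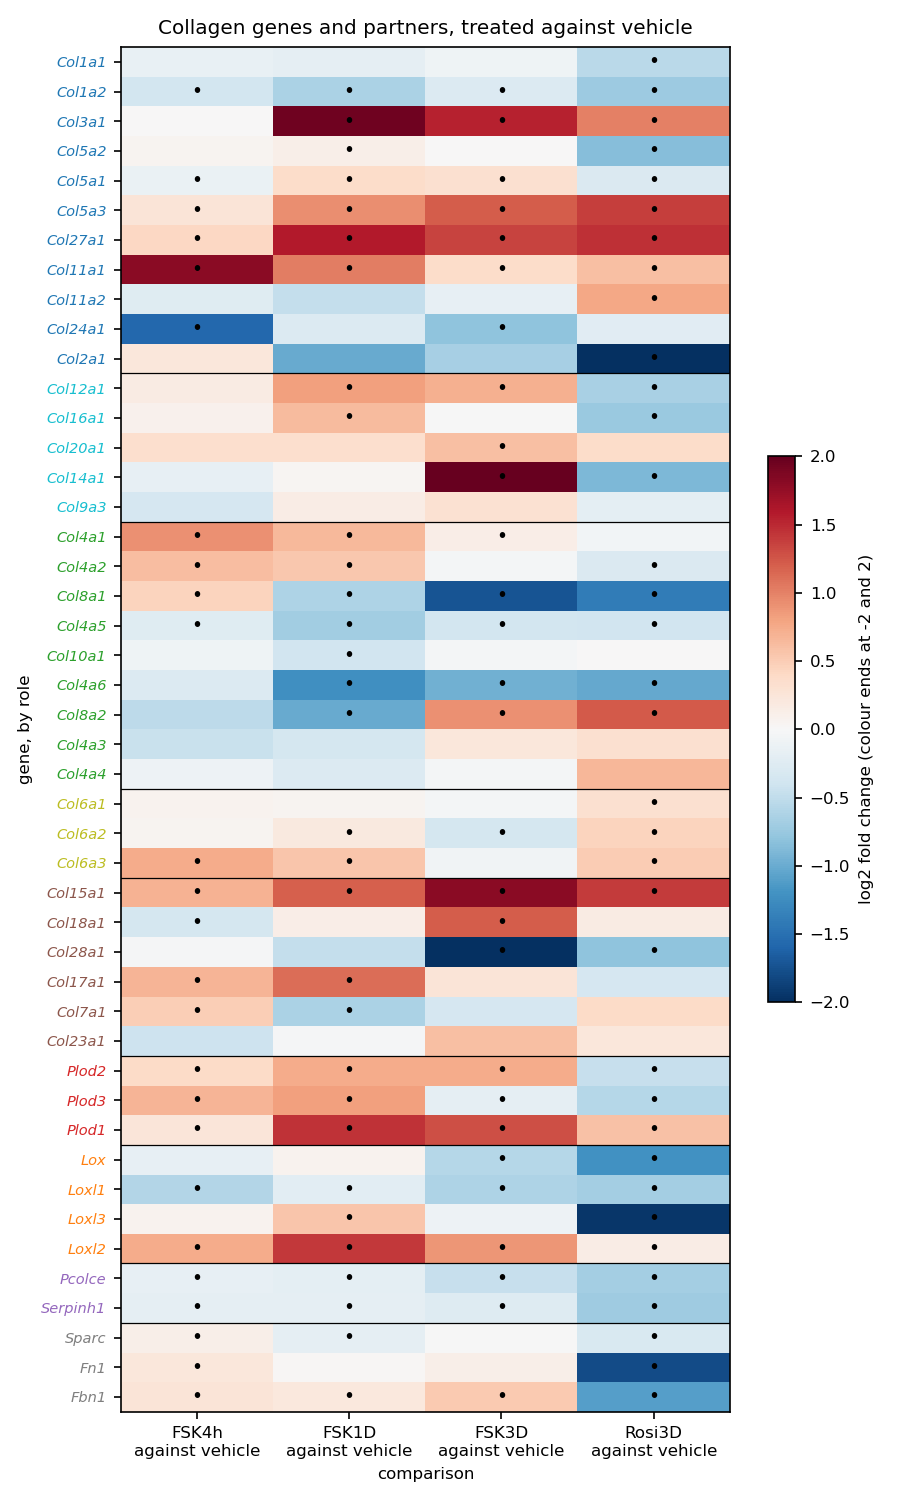
Log2 fold change against vehicle of 46 of the 47 genes tested (rows, in blocks by role) in FSK4h, FSK1D, FSK3D and Rosi3D (columns); red is higher and blue lower than vehicle, a dot marks an adjusted p under 0.05, and colours end at -2 and 2. Col26a1, at 0 in vehicle, is left out. Col3a1, Col27a1 and Col15a1 are red at 1 day, 3 days and under rosiglitazone, and Fn1, Loxl3 and Fbn1 are blue under rosiglitazone.

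The fibril-forming chains changed in different directions, and the 3 most abundant of them diverged. Col1a1, the major chain of type I collagen, had 2456, 2348 and 2053 CPM in Rosi3D libraries and 3305, 3377 and 3233 in vehicle libraries. With forskolin, Col1a1 had 2949.7, 2913 and 3041 CPM in FSK4h, 2791, 2923 and 3087 in FSK1D and 3016, 2749 and 3524 in FSK3D libraries. The Rosi3D libraries were the lowest, with a log2 fold change of -0.53 ± 0.075 (adjusted p = 7.51e-06). Those of FSK4h and FSK1D also lay below all vehicle libraries, while those of FSK3D overlapped them. Forskolin gave -0.16 ± 0.075 at 4 h, -0.17 ± 0.075 at 1 day and -0.094 ± 0.075 at 3 days, none past the threshold. The decreases at 4 h and 1 day were called with library size alone (adjusted p = 0.000180 at 4 h and 0.0244 at 1 day), with no filter on low counts (0.00219 and 0.00187) and in fits to the 2 groups alone (0.00251 and 0.00674). Without FSK3D S12, the highest library, the value at 3 days was -0.19 with an adjusted p of 0.00732.

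Col1a2, its partner in the type I trimer, had 1453, 1463 and 1288 CPM in Rosi3D libraries and 2344, 2299.7 and 2325 in vehicle libraries. With forskolin, Col1a2 had 1887, 1689.5 and 1827 CPM in FSK4h, 1470.2, 1431 and 1601 in FSK1D and 1972, 1835 and 1984 in FSK3D libraries. No treated library reached the vehicle range in any group. The log2 fold change was -0.73 ± 0.051 in Rosi3D (1.66-fold lower, adjusted p = 2.79e-14), and -0.37 ± 0.051 at 4 h, -0.63 ± 0.051 at 1 day and -0.27 ± 0.051 at 3 days of forskolin, all called lower. Within the forskolin course Col1a2 was lower at 1 day than at 4 h (-0.26 ± 0.051) and higher at 3 days than at 1 day (0.36 ± 0.051); the first of these calls was lost with library size alone (-0.10, adjusted p = 0.0978).

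Col3a1 encodes type III collagen, which shares fibrils with type I in pliable tissues. It had 1421, 1375 and 1409.7 CPM in Rosi3D libraries and 665, 713 and 707 in vehicle libraries. With forskolin, Col3a1 had 709, 655 and 736 CPM in FSK4h, 2700.1, 2498 and 2798 in FSK1D and 1958, 1888 and 2230.1 in FSK3D libraries. The 4 h libraries overlapped vehicle, while each library of FSK1D, FSK3D and Rosi3D stood above all vehicle libraries. Col3a1 rose 3.83-fold at 1 day (log2 1.94 ± 0.056, adjusted p = 7.10e-23), 2.92-fold at 3 days and 2.02-fold in Rosi3D. The level at 1 day exceeded that at 4 h by 1.93 ± 0.056 on the log2 scale, and at 3 days it was lower than at 1 day by a log2 value of -0.40 ± 0.054. At 4 h the value was 0.010 ± 0.054, and -0.18 with library size alone.

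The windows around the RefSeq starts of Col3a1 and Col1a2, 250 bases before to 50 after the start on GRCm38.p6, are printed because these chains of shared fibrils moved apart. Col3a1 lies at chr1:45311288-45311587 on the plus strand and Col1a2 at chr6:4505368-4505667 on the plus strand. Capitals mark the sequence CCAAT, the GC box GGGCGG and the TATA box TATAAA, each also as its reverse complement, and none of the marked matches overlap.
Col3a1: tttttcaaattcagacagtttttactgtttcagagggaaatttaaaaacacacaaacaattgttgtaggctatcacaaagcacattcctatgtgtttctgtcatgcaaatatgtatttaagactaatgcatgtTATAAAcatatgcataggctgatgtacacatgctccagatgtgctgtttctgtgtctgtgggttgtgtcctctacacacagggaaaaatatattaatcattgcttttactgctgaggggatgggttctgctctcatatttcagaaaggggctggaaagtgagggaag
Col1a2: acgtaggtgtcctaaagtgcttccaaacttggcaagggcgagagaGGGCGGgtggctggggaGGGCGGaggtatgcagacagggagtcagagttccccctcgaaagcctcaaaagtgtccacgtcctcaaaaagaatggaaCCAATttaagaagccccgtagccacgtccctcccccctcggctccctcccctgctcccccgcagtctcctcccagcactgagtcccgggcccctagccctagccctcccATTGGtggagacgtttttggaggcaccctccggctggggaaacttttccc
The Col3a1 window holds 1 TATAAA and none of the other motifs, and the Col1a2 window holds CCAAT in 2 places and GGGCGG in 2. Of the 51 genes, 37 had a RefSeq window, 39 windows in all. Among these, 12 windows (30.8%) held CCAAT, against 37.4% of 32851 windows of all genes; 25 (64.1%) held GGGCGG, against 35.7%; 5 (12.8%) held TATAAA, against 13.6%. The cAMP response element TGACGTCA was in 1 window (2.56%), that of Col24a1, against 1.79% of all windows. A match describes the letters of a window, and no binding was measured.

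Type V chains, which seed and limit the width of type I fibrils, differed among themselves. Col5a2 averaged 586 ± 21.4 CPM in Rosi3D, 1058 ± 12.2 in vehicle, 1099 ± 43.8 in FSK4h, 1144 ± 59.01 in FSK1D and 1061 ± 3.58 in FSK3D (SD, n = 3 each), and Rosi3D was lower than vehicle by a log2 value of -0.85 ± 0.044 (adjusted p = 5.67e-18). The call of Col5a2 at 1 day (0.11 ± 0.044) was lost without FSK1D S9 (0.089, adjusted p = 0.144), without vehicle S3 and with library size alone. Col5a1 was lower in Rosi3D by a log2 value of -0.30 ± 0.050 and higher at 1 day (0.36 ± 0.049) and 3 days (0.33 ± 0.050); its call at 4 h (-0.13 ± 0.050) was lost without FSK4h S5 (-0.066, adjusted p = 0.298), without vehicle S1 or S2, and with DESeq2. Col5a3 averaged 339 ± 6.998 CPM in Rosi3D, 129 ± 14.9 in vehicle, 156 ± 12.2 in FSK4h, 246 ± 16.2 in FSK1D and 300.2 ± 26.1 in FSK3D, and was called higher in every treated group, by 1.39 ± 0.081 in Rosi3D and 0.27 ± 0.081 at 4 h, 0.93 ± 0.081 at 1 day and 1.22 ± 0.082 at 3 days of forskolin; the call at 4 h was lost with library size alone (0.072, adjusted p = 0.383).

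The minor fibrillar chains were far scarcer than types I, III and V. Col27a1, a fibrillar chain best known from cartilage, had 30.6, 30.6 and 33.3 CPM in Rosi3D libraries and 12.03, 12.2 and 9.90 in vehicle libraries. With forskolin, Col27a1 had 14.1, 16.98 and 14.9 CPM in FSK4h, 33.2, 35.9 and 33.6 in FSK1D and 28.3, 29.05 and 30.02 in FSK3D libraries. Each treated library exceeded each vehicle library. The log2 fold change was 1.46 ± 0.086 in Rosi3D, and 0.42 ± 0.090 at 4 h, 1.58 ± 0.086 at 1 day and 1.35 ± 0.088 at 3 days of forskolin.

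Col11a1, a type XI chain that nucleates cartilage fibrils, had 16.8, 19.5 and 16.9 CPM in Rosi3D libraries and 12.5, 11.4 and 11.1 in vehicle libraries. With forskolin, Col11a1 had 44.6, 34.1 and 42.7 CPM in FSK4h, 23.9, 22.3 and 24.7 in FSK1D and 18.5, 12.2 and 13.9 in FSK3D libraries. Its highest libraries were those at 4 h, where it rose 3.48-fold (log2 1.80 ± 0.11, adjusted p = 1.82e-13), and the level was lower at 1 day than at 4 h (-0.78 ± 0.11) and lower again at 3 days (-0.65 ± 0.12). The 3-day libraries overlapped vehicle; the call there (0.37 ± 0.12) was lost without FSK3D S10 (0.19, adjusted p = 0.187). Of the 4 chondrocyte markers looked for, Sox9, a regulator of cartilage genes, averaged 79.4 CPM at 4 h and 22.6 CPM in vehicle. Matn3 averaged 1.16 CPM at 4 h and 1.41 CPM in vehicle, and Col2a1 1.22 and 1.06 CPM. Acan, with 15 counts over all libraries, averaged 0.0736 CPM at 4 h and 0.0245 CPM in vehicle. Among the 3 tested, 1 was called higher and 0 lower at 4 h. The part of these markers in the Col11a1 result was not tested.

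Col24a1, another minor fibrillar chain, had 2.30, 2.04 and 2.22 CPM in Rosi3D libraries and 2.16, 2.59 and 3.04 in vehicle libraries. With forskolin, Col24a1 had 0.577, 0.890 and 1.19 CPM in FSK4h, 1.96, 1.74 and 2.72 in FSK1D and 1.59, 1.44 and 1.40 in FSK3D libraries. It was the only chain called at least 2-fold lower at 4 h (-1.57 ± 0.27, adjusted p = 5.38e-06), it was higher at 1 day than at 4 h by 1.30 ± 0.27, and its call at 3 days (-0.81 ± 0.26) was lost without vehicle S3 (-0.67, adjusted p = 0.0521). Col2a1, the main cartilage collagen, was near the detection limit, with 0.158, 0 and 0.272 CPM in Rosi3D libraries and 1.17, 0.984 and 1.03 in vehicle libraries. With forskolin, Col2a1 had 1.59, 0.364 and 1.69 CPM in FSK4h, 0.364, 0.568 and 0.651 in FSK1D and 0.816, 0.411 and 0.700 in FSK3D libraries. It was called lower in Rosi3D, with 16 counts over the group against 96 in vehicle, a ratio of 0.144 (95% interval 0.0590 to 0.308). Its difference between FSK1D and FSK4h (-1.23 ± 0.46) was lost without FSK4h S4 or S6 or FSK1D S7, with adjusted p of 0.104 to 0.128. Col11a2 was called against vehicle in Rosi3D (0.77 ± 0.27), a call lost without vehicle S3 (0.63, adjusted p = 0.0655).

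**Figure D3:**
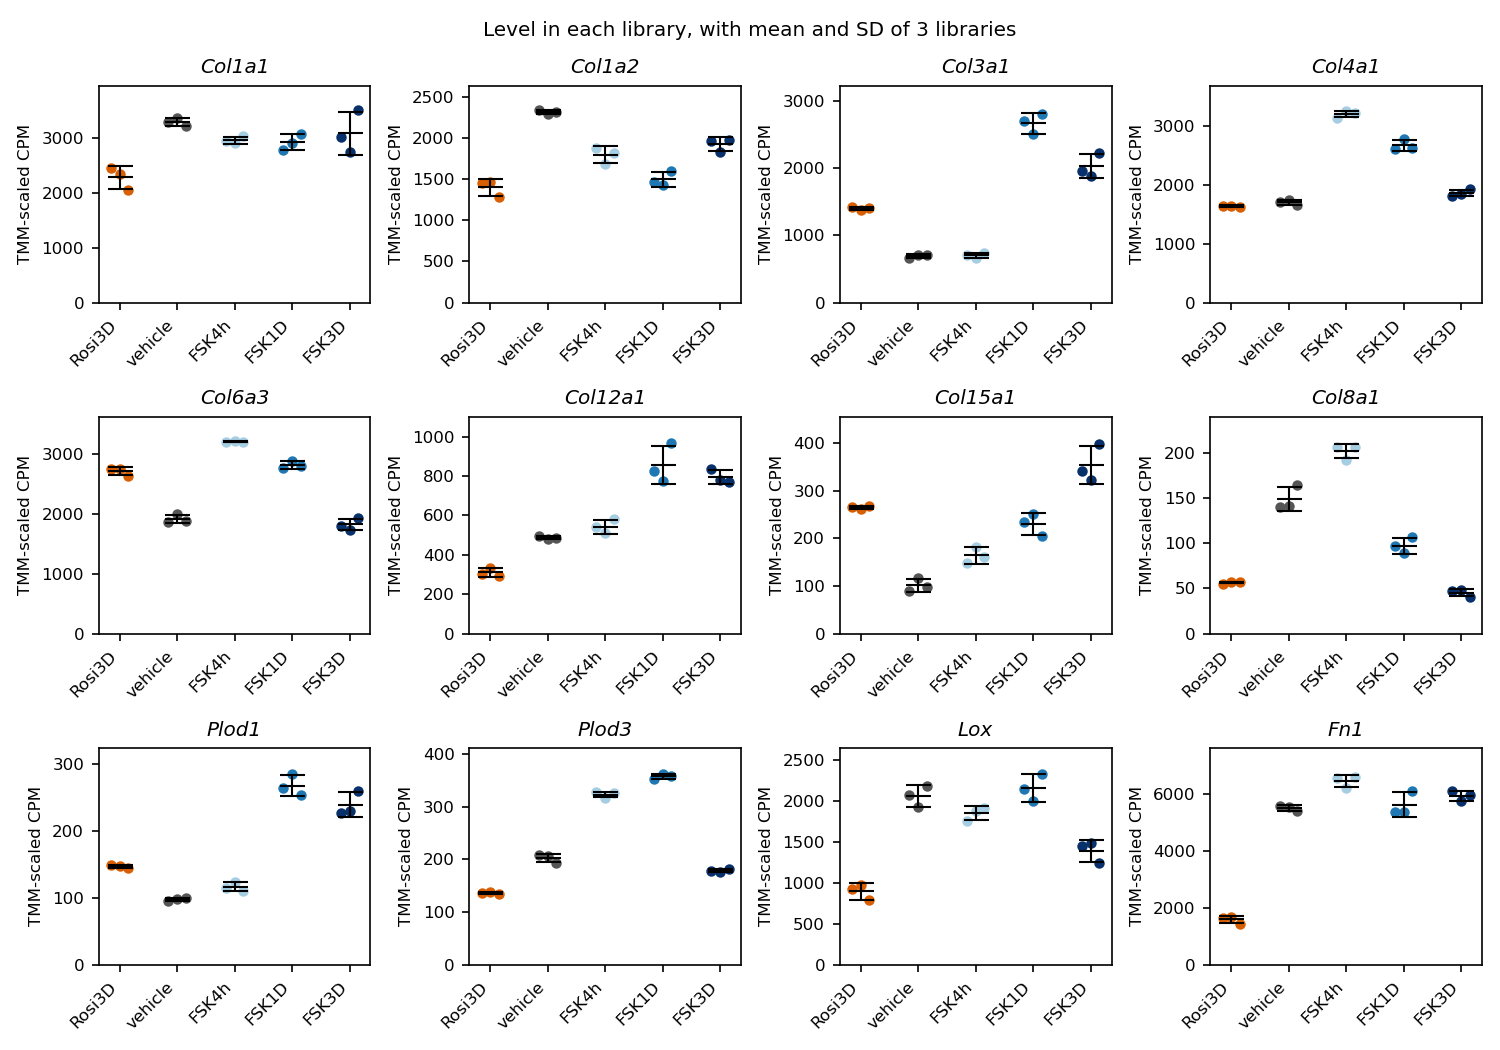
TMM-scaled CPM of 12 genes in each library (points), with the mean and SD of the 3 libraries of a group (bars); groups run Rosi3D, vehicle, FSK4h, FSK1D and FSK3D, and each axis starts at 0. Col3a1 reads 655 to 736 CPM in vehicle and FSK4h together and 2498 to 2798 CPM in FSK1D, whereas Col4a1 and Col6a3 are highest at 4 h and Fn1 and Lox lowest in Rosi3D.

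The most abundant chains of basement membrane rose early under forskolin. Col4a1 and Col4a2 encode the chains of the widespread type IV trimer. Col4a1 had 1645, 1643 and 1618 CPM in Rosi3D libraries and 1714, 1736 and 1658 in vehicle libraries. With forskolin, Col4a1 had 3137, 3251 and 3216 CPM in FSK4h, 2603, 2776 and 2622 in FSK1D and 1816, 1835 and 1926 in FSK3D libraries. Its libraries at 4 h and 1 day lay above all others. The log2 fold change against vehicle was 0.91 ± 0.042 at 4 h, 0.65 ± 0.042 at 1 day and 0.13 ± 0.041 at 3 days, the largest with an adjusted p of 2.22e-19, and -0.058 ± 0.041 in Rosi3D, which did not pass the threshold.

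Col4a2 had 969, 937 and 959.7 CPM in Rosi3D libraries and 1188, 1184 and 1134 in vehicle libraries. With forskolin, Col4a2 had 1791, 1809.8 and 1803 CPM in FSK4h, 1661, 1751 and 1697 in FSK1D and 1121, 1092 and 1188 in FSK3D libraries. It too was highest at 4 h and 1 day, without overlap with vehicle, by 0.62 ± 0.042 and 0.54 ± 0.042. At 3 days the value was -0.044 ± 0.042, with overlapping libraries, and in Rosi3D Col4a2 was lower by a log2 value of -0.29 ± 0.042 (adjusted p = 2.31e-07). Between 1 and 3 days both chains fell, Col4a1 by 0.52 and Col4a2 by 0.59 on the log2 scale.

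These genes are neighbours on chromosome 8 that are transcribed away from each other and overlap by 22 bases in the annotation, so a read in that overlap cannot be assigned without strand. Their RefSeq starts are 21 bases apart and their windows share 78 bases. They are printed because both chains were higher than vehicle at 4 h and 1 day of forskolin, with capitals for the same motifs. Col4a1 is at chr8:11312777-11313076 on the minus strand and Col4a2 at chr8:11312555-11312854 on the plus strand.
Col4a1: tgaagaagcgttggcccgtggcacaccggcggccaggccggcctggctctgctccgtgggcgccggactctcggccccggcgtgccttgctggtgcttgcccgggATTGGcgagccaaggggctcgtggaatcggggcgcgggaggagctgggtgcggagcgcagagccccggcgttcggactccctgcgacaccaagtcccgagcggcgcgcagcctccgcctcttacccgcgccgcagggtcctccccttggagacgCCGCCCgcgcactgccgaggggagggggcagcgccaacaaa
Col4a2: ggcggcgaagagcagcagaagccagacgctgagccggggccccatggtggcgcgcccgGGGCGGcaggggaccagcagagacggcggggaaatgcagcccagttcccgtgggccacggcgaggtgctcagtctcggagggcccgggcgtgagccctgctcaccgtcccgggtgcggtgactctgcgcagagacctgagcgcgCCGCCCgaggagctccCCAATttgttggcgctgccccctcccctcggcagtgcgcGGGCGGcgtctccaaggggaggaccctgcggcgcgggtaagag
Both windows hold CCAAT in 1 place, and GGGCGG stands in 1 place in the Col4a1 window and in 3 in the Col4a2 window. The GGGCGG match of the Col4a1 window lies in the shared bases and is the same site as 1 of the 3 in the Col4a2 window. The other pairs of type IV genes have the same arrangement, with Col4a4 and Col4a3 71 bases apart on chromosome 1 and Col4a6 and Col4a5 1308 bases apart on chromosome X.

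Those other type IV chains had other values. Col4a5 averaged 120.0 ± 4.88 CPM in Rosi3D, 156 ± 4.83 in vehicle, 132 ± 4.97 in FSK4h, 95.9 ± 4.01 in FSK1D and 121 ± 3.73 in FSK3D, and was called lower in each treated group, by log2 values of -0.38 ± 0.048 in Rosi3D and -0.24 ± 0.048 at 4 h, -0.70 ± 0.048 at 1 day and -0.36 ± 0.048 at 3 days of forskolin. Col4a6 had 4.26, 4.92 and 4.98 CPM in Rosi3D libraries and 8.76, 9.52 and 10.2 in vehicle libraries. With forskolin, Col4a6 had 8.49, 8.37 and 6.63 CPM in FSK4h, 4.15, 2.95 and 5.05 in FSK1D and 6.12, 3.91 and 4.39 in FSK3D libraries. It was at least 2-fold lower at 1 day (-1.23 ± 0.17) and in Rosi3D (-1.02 ± 0.16), and lower at 3 days by -0.97 ± 0.17. Col4a3 and Col4a4 had 904 and 330 reads over all libraries and were not called in any comparison, though Col4a3 was called in 2 alternatives and Col4a4 in 1.

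Col8a1, a chain of the short network collagen type VIII, had 55.3, 57.2 and 56.5 CPM in Rosi3D libraries and 140.3, 141 and 164 in vehicle libraries. With forskolin, Col8a1 had 206, 192 and 206 CPM in FSK4h, 96.8, 88.6 and 106 in FSK1D and 46.8, 48.1 and 40.9 in FSK3D libraries. Its order over the course was distinct from that of type IV: above vehicle at 4 h by 0.44 ± 0.063, below it at 1 day by -0.61 ± 0.065 and furthest below at 3 days by -1.72 ± 0.069 (3.30-fold lower, adjusted p = 1.21e-17). In Rosi3D it was 2.64-fold lower (-1.40 ± 0.066), and no library of these groups overlapped vehicle.

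Col8a2, the other type VIII chain, was far scarcer, with 2.88, 2.51 and 1.67 CPM in Rosi3D libraries and 0.802, 1.02 and 1.25 in vehicle libraries. With forskolin, Col8a2 had 0.550, 0.647 and 0.936 CPM in FSK4h, 0.291, 0.227 and 0.995 in FSK1D and 1.75, 2.06 and 1.97 in FSK3D libraries. It was called higher in Rosi3D (1.23 ± 0.32) and higher at 3 days than at 1 day (1.93 ± 0.38, a ratio of counts of 3.83 with a 95% interval of 2.31 to 6.70). The calls against vehicle at 1 day (-1.01 ± 0.40, 40 counts against 91, with overlapping libraries) and at 3 days (0.91 ± 0.34) did not hold when single libraries were left out: the first was -0.65 without FSK1D S8 (adjusted p = 0.233), likewise lost without FSK1D S7 or vehicle S2 or S3, and -1.93 without FSK1D S9 (adjusted p = 0.000846), and the second was 0.78 without vehicle S1 (adjusted p = 0.0948). Col10a1, of hypertrophic cartilage, overlaps Nt5dc1 on the other strand and stayed within 4.55 to 7.54 CPM in all libraries; its calls at 1 day against vehicle (-0.38) and at 3 days against 1 day (0.34) were each lost without FSK1D S7 (adjusted p = 0.161 and 0.188).

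Type VI collagen, which forms beaded filaments around cells, is made of the chains of Col6a1, Col6a2 and Col6a3. All 3 were higher in Rosi3D than in vehicle, whereas the type I chains were lower. Col6a1 had 3128, 3171 and 3102 CPM in Rosi3D libraries and 2439, 2587 and 2535 in vehicle libraries. With forskolin, Col6a1 had 2637, 2655 and 2636 CPM in FSK4h, 2590.5, 2701 and 2593 in FSK1D and 2391, 2321 and 2619.6 in FSK3D libraries. The Rosi3D libraries stood above all others (0.31 ± 0.044, adjusted p = 1.50e-07), and no forskolin time was called against vehicle; at 4 h the value was 0.068, and -0.12 with library size alone.

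Col6a2 had 1726, 1687 and 1758 CPM in Rosi3D libraries and 1225, 1331 and 1261 in vehicle libraries. With forskolin, Col6a2 had 1324, 1327 and 1302 CPM in FSK4h, 1450.1, 1484 and 1426 in FSK1D and 965, 926 and 1107 in FSK3D libraries. It was higher than vehicle in Rosi3D by 0.44 ± 0.049 and at 1 day by 0.19 ± 0.049, and lower at 3 days by a log2 value of -0.35 ± 0.049. Its value at 4 h was 0.050, with overlapping libraries, and -0.14 with library size alone. Col6a3, the largest of the chains, had 2759, 2757 and 2638 CPM in Rosi3D libraries and 1863, 1996 and 1883 in vehicle libraries. With forskolin, Col6a3 had 3211, 3221 and 3209 CPM in FSK4h, 2767, 2895 and 2813 in FSK1D and 1806, 1738 and 1933 in FSK3D libraries. It rose at 4 h by 0.75 ± 0.044 and at 1 day by 0.56 ± 0.044, while its 3-day libraries overlapped vehicle (-0.068 ± 0.044); without FSK3D S12 a decrease was called there (-0.11, adjusted p = 0.0424). In Rosi3D it was higher by 0.51 ± 0.044. Col6a4 and Col6a6 were detected with 66 and 53 reads over all libraries and were not tested.

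Of the 5 fibril-associated chains tested, which sit on the surface of fibrils, 3 were lower and none higher in Rosi3D than in vehicle, where 32.0% of all genes were lower. After 3 days of forskolin 3 were higher and none lower, where 25.9% of all genes were higher, and 1 of the 3, Col20a1, was lost without FSK3D S12. Col12a1, the most abundant of them, had 304, 335 and 292 CPM in Rosi3D libraries and 496, 481 and 485 in vehicle libraries. With forskolin, Col12a1 had 539, 511 and 581 CPM in FSK4h, 825, 778 and 967 in FSK1D and 835, 781 and 769 in FSK3D libraries. The Rosi3D libraries lay below vehicle (-0.65 ± 0.068) and the FSK1D and FSK3D libraries above it (0.81 ± 0.067 and 0.70 ± 0.067); at 4 h the value was 0.16 ± 0.067 with an adjusted p of 0.0503. The FSK4h libraries lay above all vehicle libraries too, and the increase was called in 8 alternatives, among them RLE scaling (adjusted p = 0.0257), DESeq2 (0.0140) and a fit to the 2 groups alone (0.00217). Col16a1 had 56.9, 56.8 and 48.8 CPM in Rosi3D libraries and 93.8, 86.3 and 92.4 in vehicle libraries. With forskolin, Col16a1 had 100.2, 92.2 and 96.8 CPM in FSK4h, 131, 142 and 149 in FSK1D and 91.4, 85.4 and 94.2 in FSK3D libraries. It was lower in Rosi3D by a log2 value of -0.74 ± 0.060 and higher at 1 day by 0.63 ± 0.058, with FSK4h and FSK3D libraries overlapping vehicle.

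Col14a1, a chain that binds fibrils in dense connective tissue, had 1.20, 2.09 and 1.17 CPM in Rosi3D libraries and 2.53, 2.10 and 3.37 in vehicle libraries. With forskolin, Col14a1 had 2.17, 2.75 and 2.27 CPM in FSK4h, 2.47, 2.57 and 3.14 in FSK1D and 13.5, 14.3 and 11.6 in FSK3D libraries. Its FSK3D libraries stood apart from all the rest. At 3 days Col14a1 was 4.92-fold higher than vehicle (log2 2.30 ± 0.18, adjusted p = 1.35e-12) and 4.79-fold higher than at 1 day, and in Rosi3D it was lower than vehicle by a log2 value of -0.90 ± 0.22. Col20a1 had 4.91, 5.53 and 3.85 CPM in Rosi3D libraries and 3.61, 4.30 and 3.12 in vehicle libraries. With forskolin, Col20a1 had 4.04, 5.34 and 4.61 CPM in FSK4h, 4.58, 4.66 and 4.67 in FSK1D and 5.22, 4.59 and 6.65 in FSK3D libraries, and its call at 3 days (0.60 ± 0.17) was lost without FSK3D S12 (0.43, adjusted p = 0.0705). Col9a3, which overlaps Tcfl5 on the other strand, was not called in any comparison, and Col9a2 (79 reads) and Col19a1 (63) were not tested.

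Both multiplexins, chains found in basement membrane zones, were higher after 3 days of forskolin than in vehicle. Col15a1, whose type XV collagen joins basement membrane to the fibrils beneath it, had 267, 260.3 and 267 CPM in Rosi3D libraries and 89.3, 116 and 97.1 in vehicle libraries. With forskolin, Col15a1 had 148, 182 and 160.4 CPM in FSK4h, 234, 251 and 205 in FSK1D and 341, 322 and 398 in FSK3D libraries. No treated library overlapped vehicle. The log2 fold change was 1.39 ± 0.12 in Rosi3D, and 0.70 ± 0.12 at 4 h, 1.19 ± 0.12 at 1 day and 1.81 ± 0.12 at 3 days of forskolin, each step of the forskolin course being called higher than the one before.

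Col18a1, the source of the endostatin fragment, had 27.1, 24.6 and 27.3 CPM in Rosi3D libraries and 19.9, 27.04 and 23.5 in vehicle libraries. With forskolin, Col18a1 had 17.5, 19.3 and 18.8 CPM in FSK4h, 23.8, 28.01 and 25.1 in FSK1D and 51.7, 49.4 and 61.3 in FSK3D libraries. Its FSK3D libraries were the highest (1.21 ± 0.092, 2.32-fold, adjusted p = 2.64e-12), and those of Rosi3D and FSK1D overlapped vehicle, with calls against it without vehicle S2 (adjusted p = 0.0101 in Rosi3D and 0.0403 at 1 day). The small decrease called at 4 h (-0.34 ± 0.10) was lost without vehicle S2 (-0.22, adjusted p = 0.0663). Col18a1 overlaps Slc19a1 on the other strand, and whether reads were counted by strand is not stated.

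Col28a1, a minor chain known from peripheral nerve, had 1.93, 1.63 and 2.30 CPM in Rosi3D libraries and 4.29, 3.74 and 2.24 in vehicle libraries. With forskolin, Col28a1 had 3.82, 3.48 and 2.81 CPM in FSK4h, 2.36, 2.16 and 2.91 in FSK1D and 0.571, 0.685 and 0.700 in FSK3D libraries. At 3 days of forskolin 46 counts remained over the group against 314 in vehicle, a ratio of 0.187 (95% interval 0.115 to 0.291), and the log2 fold change was -2.39 ± 0.28 (adjusted p = 7.11e-09). In Rosi3D the call (-0.81 ± 0.23) came with overlapping libraries. Col17a1, a transmembrane collagen of hemidesmosomes, averaged 1.52 ± 0.688 CPM in Rosi3D, 1.88 ± 0.216 in vehicle, 2.99 ± 0.215 in FSK4h, 4.08 ± 0.195 in FSK1D and 2.25 ± 0.252 in FSK3D; it was higher at 1 day by 1.12 ± 0.22, and its call at 4 h (0.67 ± 0.23) was lost without vehicle S1 (0.59, adjusted p = 0.0516) and with library size alone (0.48, adjusted p = 0.0666).

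Col7a1, which forms anchoring fibrils, had 3.90, 4.32 and 5.14 CPM in Rosi3D libraries and 3.49, 3.64 and 3.01 in vehicle libraries. With forskolin, Col7a1 had 5.80, 3.32 and 4.97 CPM in FSK4h, 1.96, 2.46 and 2.10 in FSK1D and 3.71, 2.53 and 1.84 in FSK3D libraries. It was lower at 1 day than at 4 h by a log2 value of -1.12 ± 0.22 (adjusted p = 4.93e-05). Its calls against vehicle were not stable: the one at 4 h (0.49 ± 0.21) was lost without vehicle S1 or S3, without FSK4h S4 or S6 and with library size alone (adjusted p = 0.0662 to 0.263, the value being 0.31 without FSK4h S4), and the one at 1 day (-0.64 ± 0.23) without vehicle S1 or S2 or FSK1D S7 or S9 (adjusted p = 0.0701 to 0.103). Col26a1 had no read in vehicle, with 0.545, 0.557 and 0.701 CPM in Rosi3D libraries and 0, 0 and 0 in vehicle libraries. With forskolin, Col26a1 had 0.0550, 0 and 0 CPM in FSK4h, 0.255, 0.416 and 0.230 in FSK1D and 0, 0.137 and 0.0318 in FSK3D libraries. Its counts over a group were 61 in Rosi3D and, over the forskolin course, 2 at 4 h, 24 at 1 day and 3 at 3 days. Set against a floor of 3 halved counts over the vehicle libraries, the level was 8.81-fold higher in Rosi3D and 4.51-fold higher in FSK1D. These folds take the treated counts as exact, so they are not lower bounds. Of its 90 reads over all libraries 61 were in Rosi3D, and Col26a1 met the read minimum only through that group. Col23a1, a transmembrane chain with 468 reads over all libraries, was not called in any comparison.

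All lysyl hydroxylase mRNAs were higher after 1 day of forskolin than in vehicle. Plod2, whose enzyme acts on the telopeptide lysines used for crosslinks, had 168, 169 and 180.0 CPM in Rosi3D libraries and 224, 243 and 241 in vehicle libraries. With forskolin, Plod2 had 290.1, 327 and 309.9 CPM in FSK4h, 386, 395 and 398 in FSK1D and 396, 402 and 387 in FSK3D libraries. Forskolin libraries all lay above vehicle (0.39 ± 0.046 at 4 h, 0.74 ± 0.046 at 1 day and 0.75 ± 0.046 at 3 days) and Rosi3D libraries all below (-0.45 ± 0.047, adjusted p = 2.62e-10). Plod1, which acts on lysines of the helix, had 149, 147 and 144 CPM in Rosi3D libraries and 95.3, 98.4 and 99.7 in vehicle libraries. With forskolin, Plod1 had 115, 123 and 110.4 CPM in FSK4h, 265, 285 and 254 in FSK1D and 227, 229 and 260.1 in FSK3D libraries. It was raised in every treated group, most at 1 day (2.74-fold, log2 1.45 ± 0.054, adjusted p = 1.66e-21), and by 0.59 ± 0.053 in Rosi3D; the call at 4 h (0.25 ± 0.054) was lost with library size alone (0.054, adjusted p = 0.362).

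Plod3, which also attaches sugars to hydroxylysine, had 136, 138 and 134 CPM in Rosi3D libraries and 208, 206 and 193 in vehicle libraries. With forskolin, Plod3 had 327, 317 and 325 CPM in FSK4h, 352, 362 and 358 in FSK1D and 178, 176 and 182 in FSK3D libraries. Its rise at 4 h (0.68 ± 0.042) and 1 day (0.82 ± 0.042) was no longer seen at 3 days, where it stood below vehicle by a log2 value of -0.18 ± 0.042. The fall between 1 and 3 days was 2.003-fold (-1.002 ± 0.042, adjusted p = 1.06e-19), with no overlap between the libraries. Rosi3D libraries were the lowest (-0.57 ± 0.042). Plod3 overlaps Znhit1 on the other strand.

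The lysyl oxidases had no common direction against vehicle under forskolin. Lox, which crosslinks both collagen and elastin, had 921, 974 and 782 CPM in Rosi3D libraries and 2071, 1919 and 2181 in vehicle libraries. With forskolin, Lox had 1747, 1869.9 and 1915 CPM in FSK4h, 2143, 1994 and 2324 in FSK1D and 1443, 1486 and 1236 in FSK3D libraries. Rosi3D libraries were the lowest (-1.20 ± 0.091, 2.30-fold, adjusted p = 4.66e-08), followed by those of FSK3D (-0.57 ± 0.090), and no library of either overlapped vehicle. At 4 h and 1 day no change of Lox against vehicle was called. Each FSK4h library still lay below each vehicle library (-0.16 ± 0.090), and the decrease was called in a fit to the 2 groups alone (adjusted p = 0.00939), with no filter on low counts (0.00239) and with library size alone (0.00742).

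Loxl1, which is required for elastic fibres, had 203, 201 and 191 CPM in Rosi3D libraries and 319, 319.9 and 315 in vehicle libraries. With forskolin, Loxl1 had 219.9, 197 and 221 CPM in FSK4h, 279, 278 and 267 in FSK1D and 209.5, 202 and 209 in FSK3D libraries. It was below vehicle in every treated group, by log2 values of -0.68 ± 0.045 in Rosi3D and -0.58 ± 0.045 at 4 h, -0.21 ± 0.045 at 1 day and -0.62 ± 0.045 at 3 days of forskolin. Loxl3 had 36.6, 42.3 and 29.9 CPM in Rosi3D libraries and 147, 129 and 141 in vehicle libraries. With forskolin, Loxl3 had 148, 134 and 158 CPM in FSK4h, 195, 201 and 216 in FSK1D and 127, 135 and 126 in FSK3D libraries. The Rosi3D libraries stood far below all the others (3.84-fold lower, -1.94 ± 0.10, adjusted p = 4.49e-11), and Loxl3 was called higher than vehicle at 1 day (0.56 ± 0.088), with 0.076 ± 0.088 at 4 h and -0.11 ± 0.089 at 3 days; it overlaps Htra2 on the other strand. Loxl2, known for crosslinking type IV collagen, was higher at each forskolin time, averaging 40.4 ± 2.21 CPM in Rosi3D, 36.4 ± 1.73 in vehicle, 60.7 ± 3.15 in FSK4h, 97.3 ± 5.46 in FSK1D and 66.7 ± 1.44 in FSK3D, with log2 fold changes of 0.74 ± 0.060 at 4 h, 1.42 ± 0.060 at 1 day and 0.88 ± 0.061 at 3 days of forskolin; its call in Rosi3D (0.15 ± 0.061) was lost without vehicle S2 (0.13, adjusted p = 0.109), without Rosi3D S13 or S14, and with library size alone.

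Both helpers of folding and processing were lower in every treated group. Serpinh1, the collagen chaperone of the endoplasmic reticulum, had 254, 250.4 and 243 CPM in Rosi3D libraries and 397, 416 and 406 in vehicle libraries. With forskolin, Serpinh1 had 356, 357 and 366 CPM in FSK4h, 361, 354 and 363 in FSK1D and 332, 329 and 360.1 in FSK3D libraries. No treated library overlapped vehicle, and the log2 fold change was -0.70 ± 0.043 in Rosi3D (adjusted p = 4.24e-16) and -0.18 ± 0.042 at 4 h, -0.18 ± 0.042 at 1 day and -0.26 ± 0.043 at 3 days of forskolin. Pcolce, which enhances cutting of the procollagen C-propeptide, had 298, 297 and 257 CPM in Rosi3D libraries and 479.8, 452 and 436 in vehicle libraries. With forskolin, Pcolce had 422, 389.8 and 402 CPM in FSK4h, 389, 394 and 417 in FSK1D and 334, 315 and 339.8 in FSK3D libraries. Its log2 fold change was -0.68 ± 0.052 in Rosi3D and -0.17 ± 0.051 at 4 h, -0.19 ± 0.051 at 1 day and -0.47 ± 0.052 at 3 days; without vehicle S1 the calls at 4 h and 1 day were lost (-0.12 and -0.13, adjusted p = 0.0672 and 0.0721), and that at 4 h also without FSK4h S5. Pcolce overlaps Fbxo24 on the same strand.

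All 3 matrix partners were lower in Rosi3D than in vehicle. Fn1 encodes fibronectin, on which cells assemble collagen fibrils. It had 1651, 1686 and 1431 CPM in Rosi3D libraries and 5588, 5550.1 and 5415 in vehicle libraries. With forskolin, Fn1 had 6577, 6232 and 6607 CPM in FSK4h, 5381, 5386 and 6135 in FSK1D and 6118, 5772 and 5982 in FSK3D libraries. Every Rosi3D library lay far below every other library (3.47-fold lower, -1.80 ± 0.055, adjusted p = 5.52e-23). Under forskolin the values were 0.23 ± 0.053 at 4 h, 0.030 ± 0.053 at 1 day and 0.11 ± 0.053 at 3 days, and only that at 4 h was called, which was 0.037 with library size alone (adjusted p = 0.569). At 3 days an increase was called with no filter on low counts (adjusted p = 0.0147) and without FSK3D S11 (0.15, adjusted p = 0.0409). Fn1 overlaps Apol7d on the other strand.

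Fbn1, the main protein of microfibrils, had 343, 347 and 306 CPM in Rosi3D libraries and 714, 708 and 726 in vehicle libraries. With forskolin, Fbn1 had 851, 799.6 and 923 CPM in FSK4h, 832, 816 and 847 in FSK1D and 1051, 1048 and 986 in FSK3D libraries. Rosi3D libraries lay below vehicle (-1.11 ± 0.050) and FSK3D libraries above it (0.52 ± 0.049, adjusted p = 6.00e-11). The smaller increases at 4 h and 1 day were 0.26 ± 0.049 and 0.22 ± 0.049, of which the one at 4 h was 0.068 with library size alone (adjusted p = 0.255). Sparc, a collagen-binding protein of bone and fat, had 1456, 1443 and 1354 CPM in Rosi3D libraries and 1757, 1803 and 1671 in vehicle libraries. With forskolin, Sparc had 1861, 1891 and 1907 CPM in FSK4h, 1554, 1545 and 1526 in FSK1D and 1795, 1676 and 1725 in FSK3D libraries. It was lower in Rosi3D (-0.30 ± 0.043) and at 1 day (-0.18 ± 0.043), and the FSK3D libraries overlapped vehicle. Its small increase at 4 h (0.11 ± 0.043) was lost without vehicle S3 (0.089, adjusted p = 0.120) and became -0.080 with library size alone.

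Both members of a trimer or fibril were compared as ratios of counts per length, which need no scaling between libraries. Col3a1 to Col1a1 was 0.489, 0.494 and 0.580 in Rosi3D libraries, 0.170, 0.178 and 0.185 in vehicle, 0.203, 0.190 and 0.204 in FSK4h, 0.817, 0.722 and 0.765 in FSK1D and 0.548, 0.580 and 0.534 in FSK3D libraries. The ratio was thus 2.93-fold above vehicle in Rosi3D, 4.32-fold at 1 day and 3.12-fold at 3 days, without overlap. Col1a1 to Col1a2 averaged 1.78 ± 0.0575 in Rosi3D, 1.56 ± 0.0444 in vehicle, 1.81 ± 0.0891 in FSK4h, 2.14 ± 0.0835 in FSK1D and 1.75 ± 0.167 in FSK3D (SD, n = 3 each). Col4a1 to Col4a2 averaged 1.66 ± 0.0346 in Rosi3D, 1.42 ± 0.0122 in vehicle, 1.73 ± 0.0221 in FSK4h, 1.52 ± 0.0197 in FSK1D and 1.59 ± 0.0331 in FSK3D, above vehicle in each treated group. Col5a1 to Col5a2 averaged 0.505 ± 0.0140 in Rosi3D, 0.343 ± 0.00318 in vehicle, 0.302 ± 0.00999 in FSK4h, 0.408 ± 0.00895 in FSK1D and 0.429 ± 0.0298 in FSK3D, below vehicle at 4 h and above it in the other treated groups. Col6a1 to Col6a2 averaged 1.71 ± 0.0544 in Rosi3D, 1.86 ± 0.0313 in vehicle, 1.88 ± 0.0158 in FSK4h, 1.70 ± 0.0179 in FSK1D and 2.30 ± 0.0696 in FSK3D, below vehicle in Rosi3D and FSK1D and above it in FSK3D. Of 20 comparisons of a treated group with vehicle, 19 had no overlap between libraries, each with an exact two-sided permutation p of 0.1, the smallest that 3 against 3 libraries allow, and 0.105 after adjustment over the 20. The exception was Col6a1 to Col6a2 at 4 h (exact permutation p = 0.4). No ratio could therefore pass 0.05 in this design. Lack of overlap was common in these data. For the levels of single genes it held for 7113 to 9561 of the 14421 tested genes in the 4 comparisons with vehicle.

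**Figure D4:**
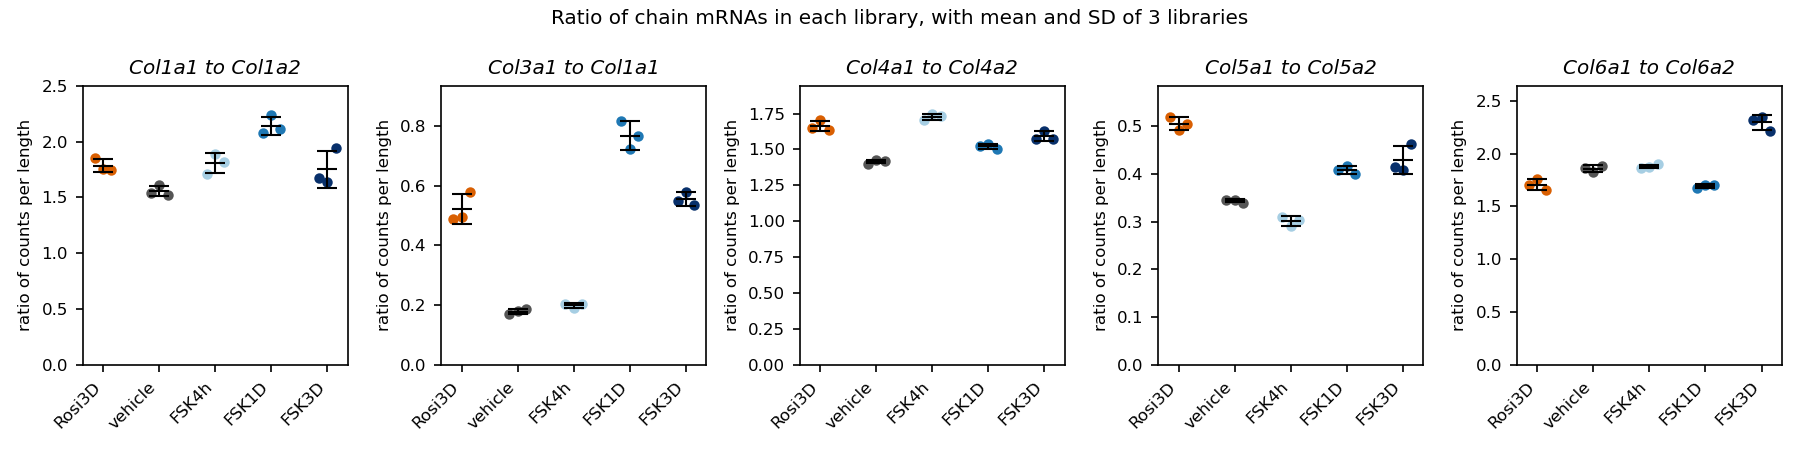
Ratio of counts per gene length between chains of the same trimer or fibril in each library (points), with mean and SD of 3 libraries, for Rosi3D, vehicle, FSK4h, FSK1D and FSK3D; each axis starts at 0. Col3a1 to Col1a1 lies at 0.170 to 0.204 in vehicle and FSK4h together and at 0.489 to 0.817 in the other groups.

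Forskolin and rosiglitazone were compared directly at 3 days. Of the 47 genes tested, 24 were higher and 8 lower in FSK3D than in Rosi3D, where 22.5% of all tested genes were higher and 20.7% lower. By at least 2-fold, 8 were higher and 2 lower, where 4.50% of all tested genes were higher and 2.76% lower. Among the 12 genes that are not collagen chains, 11 were higher and none lower in FSK3D; Loxl1 was the one not called (0.062 ± 0.046). Col14a1 averaged 13.2 ± 1.40 CPM in FSK3D and 1.48 ± 0.525 CPM in Rosi3D, a difference of 9.22-fold (3.20 ± 0.20, adjusted p = 2.73e-15). Fn1 averaged 5957 ± 175 CPM in FSK3D and 1589 ± 138 CPM in Rosi3D (3.75-fold, 1.91 ± 0.055). At least 2-fold higher in FSK3D were also Loxl3 (1.84 ± 0.10), Fbn1 (1.63 ± 0.050), Col12a1 (1.36 ± 0.068), Plod2 (1.20 ± 0.047), Col18a1 (1.04 ± 0.092) and the scarce Col2a1, with 48 counts in FSK3D and 16 in Rosi3D.

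In the other direction, each tested type VI chain was lower in FSK3D than in Rosi3D. Col6a2 averaged 999 ± 95.4 CPM in FSK3D and 1723 ± 35.7 CPM in Rosi3D (-0.79 ± 0.049, adjusted p = 3.11e-15), and the difference was -0.57 ± 0.044 for Col6a3 and -0.36 ± 0.044 for Col6a1. The lower calls past 2-fold were both of scarce chains. Col28a1 had 46 counts in FSK3D and 204 in Rosi3D, a ratio of 0.333 (95% interval 0.202 to 0.527), and Col26a1 had 3 counts in FSK3D and 61 in Rosi3D, a ratio of 0.0725 (0.0114 to 0.387). For Col3a1, higher than vehicle under both treatments, FSK3D exceeded Rosi3D by 0.53 ± 0.054. For Col27a1 and Col5a3 the differences, -0.11 ± 0.081 and -0.17 ± 0.079, did not pass the threshold, but Col5a3 was called lower with DESeq2 (adjusted p = 0.0373), with no filter on low counts (0.00156), in a fit to the 2 groups alone (0.00995) and without FSK3D S12 (-0.25, adjusted p = 0.0186). Col15a1 was higher in FSK3D by 0.42 ± 0.12, a call lost without FSK3D S12 (0.32, adjusted p = 0.0552). Col11a2 and Col7a1 were called lower in FSK3D (-0.94 ± 0.28 and -0.72 ± 0.22), the first call being lost without FSK3D S10 (-0.78, adjusted p = 0.0515) and the second without FSK3D S12 (-0.47, adjusted p = 0.108).

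Marker mRNAs of other cell states also differed between groups. The 8 adipocyte progenitor or fibroblast markers summed to 714 to 782 CPM in FSK3D, 379 to 419 CPM in Rosi3D and 720 to 765 CPM in vehicle. Of the 6 tested, 5 were higher and none lower in FSK3D than in Rosi3D. All 6 were lower in Rosi3D than in vehicle, and in FSK3D 2 were higher and 1 lower than in vehicle. Pdgfrb averaged 244 CPM in FSK3D and 402 CPM in vehicle, and Ly6a 247 and 121 CPM, in the same order. Dpp4 was at 0 in every treated group. The 4 myofibroblast markers summed to 56.5 to 65.8 CPM in FSK3D, 53.01 to 53.4 CPM in Rosi3D and 253 to 262 CPM in vehicle. Acta2 was most of the vehicle sum, at 214 CPM. All 4 were tested, with 2 higher and 1 lower in FSK3D than in Rosi3D. Against vehicle, none was higher and 3 lower in FSK3D, and 1 was higher and 3 lower in Rosi3D. Myh11 averaged 9.18 CPM in Rosi3D and 3.28 CPM in vehicle. The 8 mature adipocyte markers summed to 11390 to 12583 CPM in FSK3D, 9855 to 10316 CPM in Rosi3D and 7723 to 8561 CPM in vehicle. All 8 were tested, with 2 higher and 5 lower in FSK3D than in Rosi3D. Cfd, the largest part of the FSK3D sum, averaged 7201 CPM in FSK3D and 2053 CPM in Rosi3D. Fabp4 averaged 1054 and 3139 CPM and Cidec 635 and 1269 CPM, in the same order. Against vehicle, 7 were higher and 1 lower in FSK3D, and 5 higher and 2 lower in Rosi3D. At 1 day of forskolin, when 21 of the 47 members were higher than in vehicle, the progenitor or fibroblast markers summed to 908 to 946 CPM (2 of the 6 tested called higher and 1 lower than in vehicle), the mature adipocyte markers to 5586 to 6782 CPM (1 of 8 higher and 4 lower) and the myofibroblast markers to 21.9 to 23.4 CPM (all 4 lower). The part of these markers in the collagen results was not tested.

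**Figure D5:**
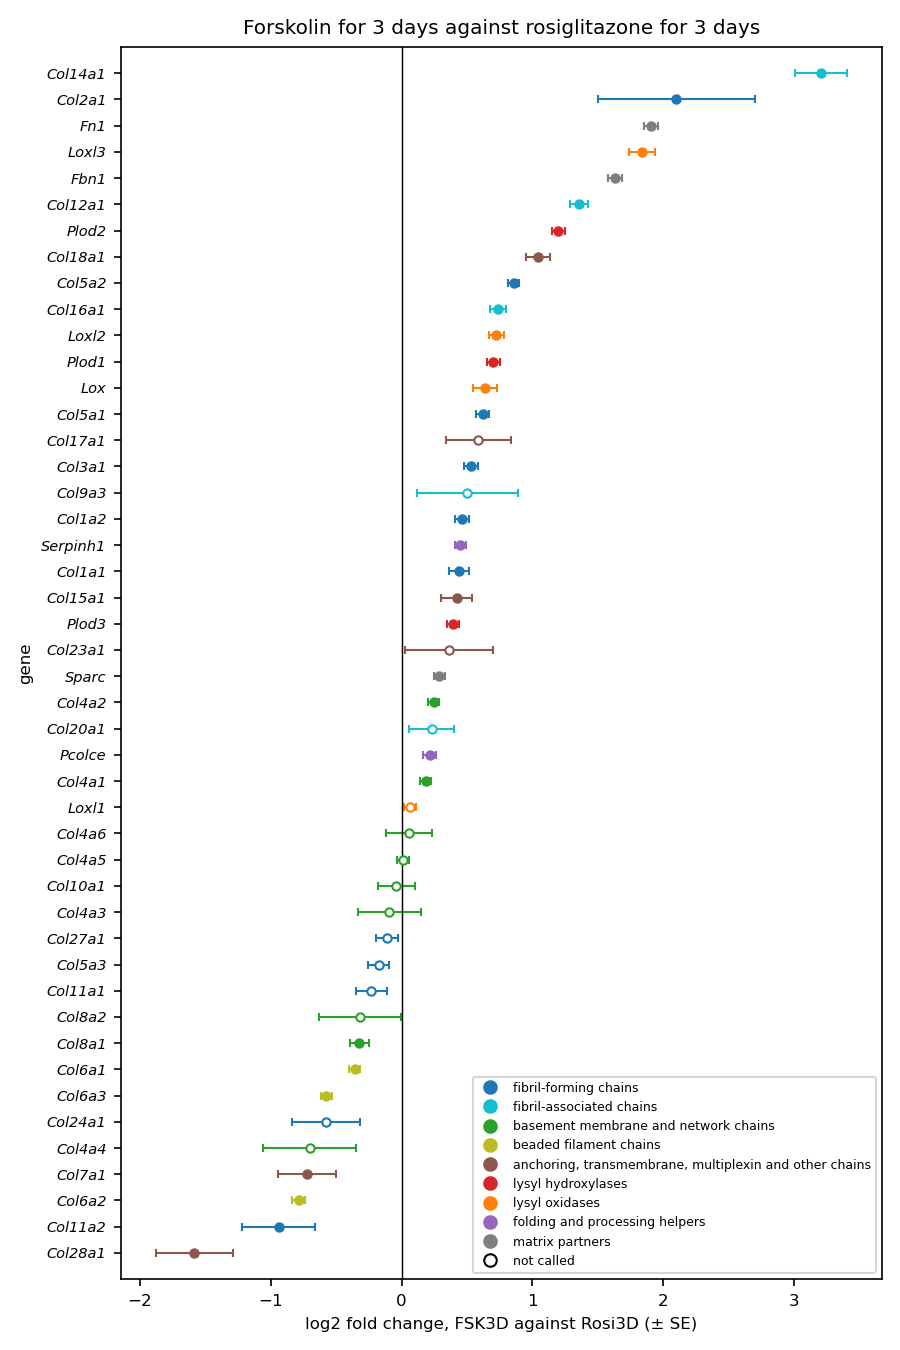
Log2 fold change of FSK3D against Rosi3D (points) with its SE (bars) for 46 of the 47 genes tested, ordered by value and coloured by role; open points did not pass an adjusted p of 0.05, and Col26a1 is left out. Col14a1 lies furthest to the right and Col28a1 furthest to the left, and the type VI chains lie left of 0.

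Within the forskolin course, 18 of the 47 genes were higher and 11 lower at 1 day than at 4 h, where 28.4% of all tested genes were higher and 28.9% lower. Of these calls, 5 and 3 were at least 2-fold (4.69% and 4.60% of all genes). With library size alone, which shifts the median of all genes by 0.17, 24 were higher and 8 lower. From 1 day to 3 days the balance was the other way, with 10 higher and 21 lower, where 25.2% of all genes were higher and 25.8% lower, and 3 and 4 were at least 2-fold (4.56% and 4.06% of all genes). All 4 lysyl oxidases were higher at 1 day than at 4 h and lower at 3 days than at 1 day, with Lox at 0.22 ± 0.090 and -0.63 ± 0.090, Loxl1 at 0.37 ± 0.045 and -0.41 ± 0.045, Loxl2 at 0.68 ± 0.058 and -0.54 ± 0.058, and Loxl3 at 0.48 ± 0.088 and -0.66 ± 0.089. These comparisons share the FSK1D libraries, and the first call of Lox was lost when any of 4 single libraries was left out (adjusted p = 0.0673 to 0.136). All 3 type VI chains were lower at 3 days than at 1 day, by -0.10 ± 0.044 for Col6a1, -0.54 ± 0.049 for Col6a2 and -0.63 ± 0.044 for Col6a3; the call of Col6a1 was lost without FSK3D S11 (-0.070, adjusted p = 0.234) and was -0.17 without FSK3D S12.

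Other genes of the same pathways were counted in lists that hold none of the 51, beside the shares over all genes given above for each comparison. Of 17 tested genes for collagen hydroxylation, folding and secretion, 1 was higher and 12 lower in Rosi3D than in vehicle, with a median log2 fold change of -0.50 against -0.012 over all tested genes. P4ha3, a prolyl hydroxylase subunit, and Fkbp10, a helper of lysine hydroxylation, had the largest decreases (-1.51 ± 0.11 and -0.90 ± 0.067), and Tmem38b, an ion channel of the endoplasmic reticulum, was the one higher (0.41 ± 0.091). Under forskolin the same list had 5 higher and 1 lower at 4 h (4 and 7 with library size alone, a scaling chosen for the lists after seeing the data), 6 and 0 at 1 day, and 2 and 8 at 3 days. The prolyl hydroxylase subunits P4ha1 and P4ha2 led the increases each time, with 0.94 ± 0.045 and 0.91 ± 0.058 at 4 h, 1.32 ± 0.045 and 1.57 ± 0.058 at 1 day, and 0.94 ± 0.045 and 0.88 ± 0.059 at 3 days.

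Of 6 tested enzymes and enhancers of propeptide removal and crosslinking, all 6 were lower in Rosi3D than in vehicle, with a median of -1.35. Tll1, a protease that cuts procollagen C-propeptides, was the most affected in both directions, at -2.39 ± 0.17 in Rosi3D and 5.07 ± 0.10, 1.06 ± 0.11 and 0.61 ± 0.12 at 4 h, 1 day and 3 days of forskolin. The C-proteinase enhancer Pcolce2 was lower in Rosi3D by a log2 value of -2.03 ± 0.071. At 4 h, 4 of the 6 were higher and 1 lower (2 and 2 with library size alone), and at 3 days 3 were higher and 3 lower.

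Of 14 tested elastic fibre genes, 12 were lower and none higher in Rosi3D than in vehicle (median -0.95), led by Mfap5 (-2.88 ± 0.20), a microfibril protein, and Ltbp1 (-1.97 ± 0.069), which tethers latent TGF-beta. In FSK3D against Rosi3D, 10 were higher and 1 lower. Against vehicle, forskolin gave 4 higher and 3 lower at 4 h, 6 and 4 at 1 day, and 5 and 5 at 3 days. Of 15 tested receptors and breakdown genes, 11 were lower and none higher in Rosi3D than in vehicle, and 13 were higher and none lower in FSK3D than in Rosi3D. Under forskolin, 5 of the 15 were higher and 6 lower than vehicle at 4 h, 4 and 7 at 1 day, and 2 and 4 at 3 days. Timp1, an inhibitor of matrix metalloproteinases, was at -2.90 ± 0.10 in Rosi3D and 2.64 ± 0.073 at 4 h of forskolin, and the collagenase Mmp13 at 3.01 ± 0.32 at 3 days. The 8 tested small leucine-rich proteoglycans, which coat fibrils, were mixed: 2 were higher and 3 lower in Rosi3D, and 0 and 4 at 4 h, 3 and 4 at 1 day, and 3 and 4 at 3 days. Dcn, which binds type I fibrils, was higher than vehicle by 2.65 ± 0.13 at 1 day and 1.38 ± 0.14 at 3 days, and Ogn was lower at 1 day (-2.44 ± 0.067).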

How the data were processed

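RNA was sequenced from 15 libraries of differentiated MAP cells, 3 in each of 5 groups taken from the sample titles. The authors deposited whole-number read counts per gene in 1 table; the submitters' processing notes name fastp, STAR, featureCounts and the builds GRCm38 and mm10, and whether reads were assigned by strand is not given in the sources used here. Totals were 14056200 to 56282582 counts per library. Of the genes with low counts, 407 to 539 per library had a count of 1 and 721 to 907 a count of 2, so both mates of a pair may have been counted; floors and intervals were therefore computed on halved counts, with 95% intervals and a floor of 3 counts over a group, and cover counting error only.

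The counts were tested with edgeR 4.0.16 (R 4.3.3): TMM factors, filterByExpr (14421 of 24421 genes), 1 mean per group over all 15 libraries (10 residual degrees of freedom, common biological coefficient of variation 5.97%), quasi-likelihood F tests with robust settings, and Benjamini-Hochberg adjustment over all tested genes at 0.05. The SE of a log2 fold change is its size over the square root of F. The script was tested on simulated data. Levels are TMM-scaled CPM, set between genes only per kb of the length given in the table. Chain ratios were compared by exact two-sided permutation tests in SciPy 1.17.1. Promoter windows come from RefSeq on GRCm38.p6. Alternatives were DESeq2 1.42.0, RLE factors, library size alone, 2 other filters on low counts, halved counts, Rn45s left out, 2-group fits and leaving out each library.

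The members and lists were chosen with earlier results of these data known. Values in every library are given for the 3 members of each role with the highest level and for calls of at least 2-fold, at most 3 in each direction per comparison; of each list, at most the 2 largest calls per direction are named. The protein sequences planned for description were not used here.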

Additional observations from a re-analysis of the deposited data

Results flagged for a closer look

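No group had more than 3 libraries, so single libraries were not tested as outliers. Named here are the members that were called in opposite directions against vehicle in a pair of treated groups, where the direct comparison of those treated groups was called as well; each such pair shares the vehicle libraries, and the value given is the log2 fold change of the direct comparison.

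FSK3D and Rosi3D differed in this way for 6 members. Col14a1 (3.20), Fbn1 (1.63), Col12a1 (1.36), Plod2 (1.20) and Col5a1 (0.62) were higher than vehicle in FSK3D and lower than vehicle in Rosi3D. Col6a2 (-0.79) was lower than vehicle in FSK3D and higher in Rosi3D.

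FSK1D and FSK4h differed for 4 members. Col5a1 (0.49) was higher than vehicle at 1 day and lower at 4 h, and its call at 4 h was lost without any of vehicle S1, vehicle S2 and FSK4h S5. Col7a1 (-1.12), Col8a1 (-1.05) and Sparc (-0.29) were lower than vehicle at 1 day and higher at 4 h; the calls of Col7a1 against vehicle and that of Sparc at 4 h were lost in several alternatives.

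FSK3D and FSK1D differed for 3 members. Col8a2 (1.93) was higher than vehicle at 3 days and lower at 1 day, with both calls against vehicle lost when single libraries were left out. Plod3 (-1.002) and Col6a2 (-0.54) were lower than vehicle at 3 days and higher at 1 day.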

How the results depend on the processing

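Of 329 member results (47 genes in 7 comparisons), 213 were called. Of these, 176 stayed called in the same direction in every alternative fit that tested the gene. Not every alternative filter kept every gene. The call was lost in at least 1 fit for 37, and 30 others gained one without a change of sign. The 9 changes of sign with a call in either fit all came with library size alone. That scaling shifts the median of all genes by -0.23 in FSK4h against vehicle and by 0.17 in FSK1D against FSK4h. No result was called in both directions. Sparc was called in the main fit and not after its change of sign (adjusted p = 0.103), and the others were called only after theirs. In FSK4h against vehicle the genes that changed sign were Col3a1 (-0.18), Col5a2 (-0.14), Col6a2 (-0.14), Col6a1 (-0.12) and Sparc (-0.080), and the counts became 10 higher and 16 lower. In FSK1D against FSK4h they were Col6a1 (0.16), Fbn1 (0.12), Pcolce (0.15) and Serpinh1 (0.16). For the lists, that scaling gave 4 higher and 7 lower in place of 5 and 1 for hydroxylation, folding and secretion at 4 h, and 1 and 6 in place of 4 and 3 for elastic fibre genes. The cause was not tested.

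Leaving out 1 library gave 15 to 18 higher and 6 to 8 lower in FSK4h against vehicle, 20 to 22 and 8 to 11 in FSK1D, 14 to 17 and 11 to 14 in FSK3D, and 12 to 14 and 23 to 24 in Rosi3D. It gave 23 to 25 higher and 8 lower in FSK3D against Rosi3D, 17 to 18 and 10 to 12 in FSK1D against FSK4h, and 9 to 10 and 16 to 21 in FSK3D against FSK1D. With Rn45s left out of the totals, the share of all members was 2.50% in Rosi3D, 3.35% in vehicle, 3.33% in FSK4h, 3.79% in FSK1D and 3.32% in FSK3D, and that of collagen chains 1.91% in Rosi3D, 2.00% in vehicle, 2.04% in FSK4h, 2.41% in FSK1D and 2.03% in FSK3D. No paired analysis was possible because the columns carry no replicate numbers of the labels. Members with few counts, such as Col26a1, Col2a1 and Col8a2, have wide counting intervals, and 4 members were too low to test.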
